A study of Mus musculus with 8 samples.

Results

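Chemokines are small secreted proteins that draw leukocytes along a concentration gradient by binding G protein-coupled receptors. CXC ligands with a glutamic acid-leucine-arginine motif attract neutrophils, CXCL9 and CXCL10 attract activated T cells, and many CC ligands attract monocytes. Atypical chemokine receptors (genes Ackr1 to Ackr4) bind chemokines without classical G protein signalling and take them up from the surroundings. In the heart, fibroblasts are a known source of Ccl2 and of CXC ligands after injury.

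The genes described here are the protein-coding genes whose symbols begin with Ccl, Cxcl, Cx3cl, Xcl or Ackr followed by a digit. The deposited tables hold 48 such rows of 54532 genes, with 42 symbols. Of these rows, 44 encode ligands and 4 encode atypical receptors. The rule used names only and no measured value. Among the ligand rows, 7 are copies of Ccl19, Ccl21a, Ccl21b, Ccl21c and Ccl27a on scaffolds, and Ccl21c has no row on a chromosome. Reads from near-identical copies such as these cannot be assigned with certainty.

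The cells were mouse cardiac fibroblasts of the C57BL/6 strain at passage 2. In 4 libraries (TSP-4 plasmid, lettered A to D) they carried a plasmid with HA-tagged murine Thbs4, the gene of the matricellular protein thrombospondin-4, behind a CMV promoter. In the other 4 (empty plasmid, also lettered A to D) they carried an empty plasmid, which the labels name as a different construct, so that a difference between groups is a difference between plasmids. Both groups then had 12 h in standard medium and 24 h without serum before poly(A) RNA was taken. The labels give neither the meaning of the letters nor any sign that libraries stem from different animals or cultures, so p-values here describe the spread of these 8 libraries. Thbs4 had 38063, 25754, 36630 and 31675 counts in TSP-4 plasmid libraries A to D, against 2, 11, 8 and 3 counts in empty plasmid libraries A to D. Library totals lay between 17123735 and 22530947 counts. The 12 fibroblast markers listed were all measured, with a summed level of 15746 to 24138 CPM (counts scaled to library size) in TSP-4 plasmid libraries and 15472 to 23476 CPM in empty plasmid libraries.

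Promoter sequence is shown first. Cxcl1, Cxcl2 and Cxcl3 belong to 1 cluster on chromosome 5 and share a run of bases before their starts. With the TSP-4 plasmid, Cxcl1 and Cxcl3 were the 2 of 25 members lower in every letter, near the 8.04% of all genes tested. Cxcl2 lay lower in 3 of 4. A link between the promoters and these differences was not tested. RefSeq promoters (assembly GRCm38.p6, 250 bases before to 50 bases after each gene's start) were matched by symbol to 19 of the 25 members that passed the expression filter. The other 6 (Ccl2, Ccl4, Ccl5, Ccl7, Cxcl16 and Cxcl5) had no promoter entry and were not searched. Members under the filter were not searched either, whereas the shares of all genes given below include genes whether expressed here or not. The letters GGGNNNTTCC, a simplified form of the kB element to which NF-kB binds, were searched on both strands and occurred in 6 of these 19 genes (Ccl20, Ccl9, Cxcl1, Cxcl10, Cxcl2 and Cxcl3), against 6.31% of all 27025 genes with a promoter of the same length. The letters TTTCNNTTTC, a simplified interferon-stimulated response element, occurred in 2 of 19 (Cxcl10 and Cxcl14), against 3.99% of all genes. Of the other genes with a kB-type match, Cxcl10 and Ccl9 were lower with the TSP-4 plasmid in 1 of 4 letters each, and Ccl20 in 2 of 4. A match is a run of letters and no evidence that a factor was bound. The stretches below are from the gene's own strand, 5′ to 3′, with every match of either motif in capitals. They are chr5:90891135-90891214 (plus strand) for Cxcl1, chr5:90903789-90903868 (plus) for Cxcl2, chr5:90785991-90786070 (plus) for Cxcl3, chr1:83116656-83116735 (plus) for Ccl20, all from 110 to 31 bases before the start, and chr5:92348980-92349109 (minus) for Cxcl10, from 220 to 91 bases before it.
Cxcl1: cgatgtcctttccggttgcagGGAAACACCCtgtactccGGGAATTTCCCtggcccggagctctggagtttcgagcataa
Cxcl2: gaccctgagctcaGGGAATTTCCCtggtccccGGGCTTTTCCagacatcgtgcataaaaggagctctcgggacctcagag
Cxcl3: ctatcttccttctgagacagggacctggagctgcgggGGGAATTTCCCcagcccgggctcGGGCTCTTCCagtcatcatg
Ccl20: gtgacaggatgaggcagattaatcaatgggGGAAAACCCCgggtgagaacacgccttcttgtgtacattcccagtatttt
Cxcl10: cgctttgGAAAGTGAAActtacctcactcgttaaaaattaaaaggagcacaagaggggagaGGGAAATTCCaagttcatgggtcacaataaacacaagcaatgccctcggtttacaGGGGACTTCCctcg
The same run, GGGAATTTCCC, stands in the promoters of Cxcl1, Cxcl2 and Cxcl3, where it is a match on both strands that overlap each other. It begins 71 bases before the start of Cxcl1, 97 before that of Cxcl2 and 73 before that of Cxcl3. Cxcl1 has a further kB-type match upstream of it, and Cxcl2 and Cxcl3 each have a further match downstream of it. Cxcl10 is the only gene of the 19 with matches of both motifs.

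The cardiac fibroblast cultures had a broad but uneven chemokine repertoire, whose cell source was not tested. The expression filter, which asks for about 10 counts in enough libraries, was passed by 25 of the 48 rows, and 23 were under it. Levels of different genes are compared in FPKM, the authors' value per kilobase of gene length. Monocyte-attracting Ccl2 stood highest, at 934 ± 255 FPKM in TSP-4 plasmid libraries and 960 ± 299 FPKM in empty plasmid libraries (SD, n = 4 each). Ccl7, its neighbour on chromosome 11 and a ligand of the same receptor CCR2, had 799 ± 246 FPKM in TSP-4 plasmid libraries and 775 ± 260 FPKM in empty plasmid libraries (SD, n = 4 each). Ccl5, which attracts T cells and monocytes, had 526 ± 183 FPKM in TSP-4 plasmid libraries and 513 ± 194 FPKM in empty plasmid libraries (SD, n = 4 each). By FPKM, Ccl2 ranked from 13 to 50 among all genes of a library, Ccl7 from 16 to 61 and Ccl5 from 35 to 91. These 3 genes took 53.2% to 69.1% of all member counts in a library.

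Next in level came the CXC ligands. Cxcl5, a neutrophil-attracting CXCR2 ligand, had 265 ± 187 FPKM in TSP-4 plasmid libraries and 299.9 ± 215 FPKM in empty plasmid libraries (SD, n = 4 each). Cxcl10, an interferon-inducible CXCR3 ligand, had 119 ± 65.4 FPKM in TSP-4 plasmid libraries and 112 ± 45.3 FPKM in empty plasmid libraries. Cxcl1, a CXCR2 ligand as well, had 98.0 ± 65.7 FPKM in TSP-4 plasmid libraries and 115 ± 64.3 FPKM in empty plasmid libraries (SD, n = 4 each for both genes). With the 3 CC ligands above, the order by mean was Ccl2, Ccl7, Ccl5, Cxcl5, Cxcl10 and Cxcl1, and the ranges over libraries of neighbours in this order overlapped. All other tested members but Ccl27a and Ackr4 lay on average between 1 and 50 FPKM in both groups, led by Cxcl16 (43.8 ± 18.7 FPKM in TSP-4 plasmid libraries and 44.3 ± 17.7 FPKM in empty plasmid libraries, SD, n = 4 each), a membrane-bound ligand of CXCR6. Ccl27a, a skin chemokine, stood at 0.607 ± 0.116 FPKM in TSP-4 plasmid libraries and 0.719 ± 0.0749 FPKM in empty plasmid libraries. Ackr4 was the lowest, at 0.416 ± 0.167 FPKM in TSP-4 plasmid libraries and 0.260 ± 0.0698 FPKM in empty plasmid libraries (SD, n = 4 each for both genes). The plot of FPKM by gene and library shows this range.

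**Figure D1:**
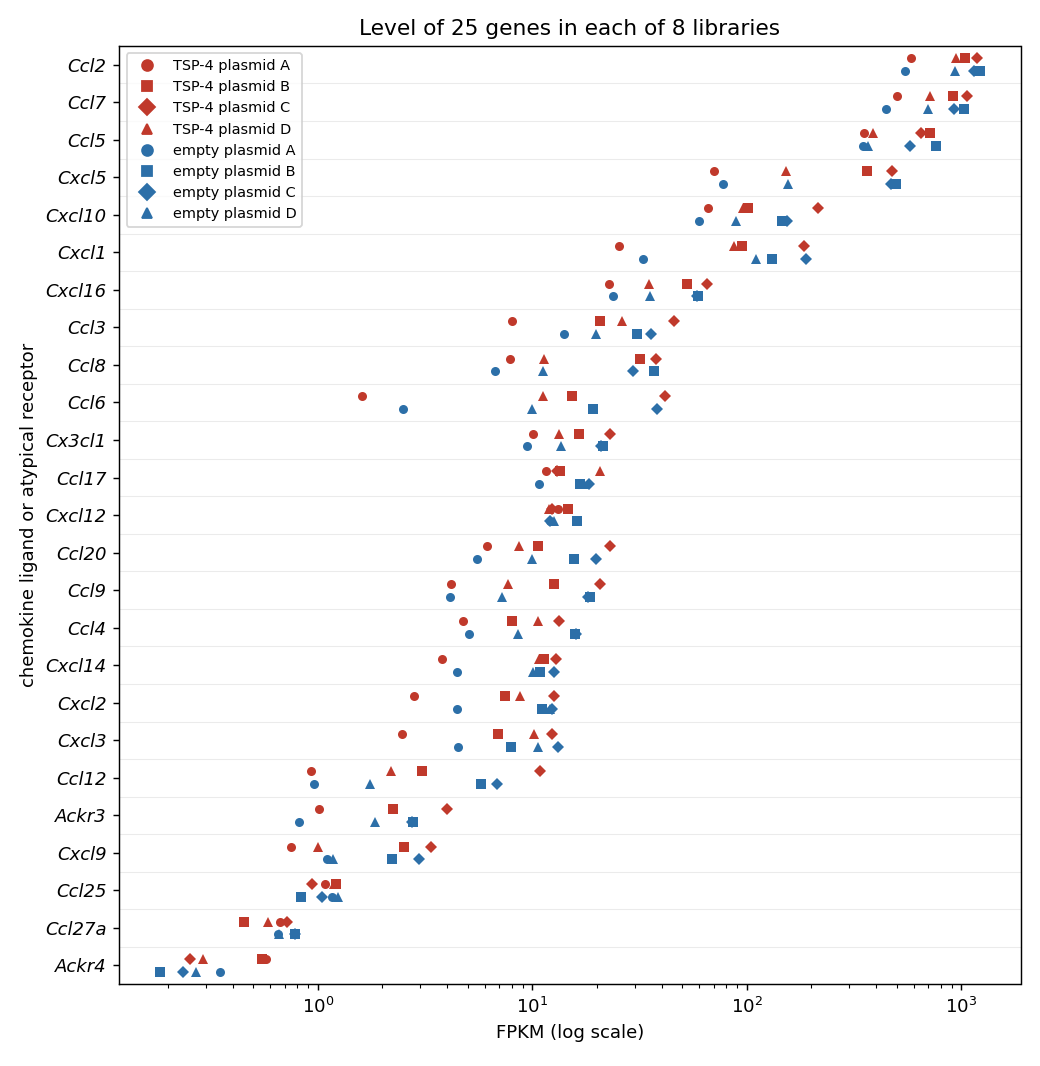
FPKM (log scale, x axis) of the 25 members that passed the expression filter (y axis, highest mean at the top) in each of the 8 libraries, with TSP-4 plasmid libraries in red above empty plasmid libraries in blue and a marker shape for each letter. Ccl2, Ccl7 and Ccl5 lie to the right of the other genes in most libraries, both colours of a letter lie close together, and circles (letter A) lie to the left for most genes.

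Members under the filter included most lymphoid and epithelial chemokines. No counts in any library were found for 13 rows, among them Ccl1, Ccl24, Ccl26, Cxcl15, Xcl1 and all copies of Ccl21a, Ccl21b and Ccl21c. A count of 0 allows up to 3 counts, or 0.133 to 0.175 CPM depending on the library. This bound may not hold for the near-identical copies of Ccl19, Ccl21a, Ccl21b, Ccl21c and Ccl27a, as the handling of multi-mapping reads was not given. The other 10 had at most 10 counts in a library: Ackr1, Ackr2, Ccl11, Ccl19, Ccl22, Ccl27b, Ccl28, Cxcl13, Cxcl17 and a scaffold copy of Ccl27a. The eosinophil chemokine Ccl11 had 0, 0, 4 and 0 counts in TSP-4 plasmid libraries A to D, against 0, 3, 0 and 0 counts in empty plasmid libraries A to D. Ackr2, a scavenger of inflammatory CC chemokines, had 2, 5, 3 and 9 counts with the TSP-4 plasmid, against 10, 4, 3 and 3 with the empty plasmid. Ackr1, known from erythrocytes and venules, had 1, 4, 5 and 2 counts with the TSP-4 plasmid, against 0, 9, 8 and 4 with the empty plasmid. Both groups overlapped for each of these 3 genes, and a difference between plasmids was not detectable at this depth.

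Most measured ligands lie in 3 gene clusters (coordinates as in the files, mm10). On chromosome 11, Ccl2, Ccl7, Ccl11, Ccl12, Ccl8 and Ccl1 lie in this order between 82035571 and 82305690, and 4 of these 6 passed the filter, while Ccl11 and Ccl1 did not. Further along the same chromosome, between 83525778 and 83664683, all 5 of Ccl5, Ccl9, Ccl6, Ccl3 and Ccl4 passed. On chromosome 5, Cxcl5, Cxcl3, Cxcl15, Cxcl1 and Cxcl2 lie between 90759360 and 90905938, and Cxcl15, known from lung epithelium, was the one at 0 counts in all 8 libraries.

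Chemokine levels differed between the letters of the libraries. In edgeR's quasi-likelihood F test of the letters with plasmid as a covariate (Benjamini-Hochberg, adjusted p under 0.05), 20 of the 25 tested members were called, against 28.1% of all 14723 genes tested. The mean of a letter's libraries varied 3.13-fold in the median member between its highest and lowest letter (range 1.21-fold to 19.5-fold), against 1.23-fold in the median gene. A letter range over 2-fold was found for 20 of the 25 members and for 11.1% of all genes tested. Letter A was the lowest for 21 of 25 members (28.3% of all genes tested) and letter C the highest for 19 of 25 (23.5% of all genes tested). Without both libraries of letter A, 15 of 25 members were called, against 23.8% of all genes tested, so the letters B, C and D differed among themselves too. In these bulk libraries, fewer cells of a type and less RNA per cell cannot be told apart.

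Ccl6, a CCR1 ligand of rodents made mainly by myeloid cells, varied most. It stood at 2.89, 27.7, 74.4 and 20.2 CPM in TSP-4 plasmid libraries A to D, against 4.46, 34.9, 69.1 and 17.9 CPM in empty plasmid libraries A to D. The libraries of letter C were the highest and those of letter A the lowest in both groups, with a mean in C 19.5-fold that in A (edgeR F test over letters, adjusted p = 1.4e-06). Its neighbour Ccl9, another rodent CCR1 ligand, had 12.7, 38.7, 62.8 and 23.6 CPM with the TSP-4 plasmid, against 12.5, 57.1, 56.1 and 22.2 CPM with the empty plasmid. For Ccl9 the letters fell in 2 pairs, B and C above A and D. Ccl12, a mouse CCR2 ligand, had 0.496, 1.65, 5.85 and 1.18 CPM with the TSP-4 plasmid, against 0.517, 3.12, 3.72 and 0.939 CPM with the empty plasmid, a C-to-A ratio of 9.45.

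The neutrophil-attracting ligands followed the letters less uniformly. Cxcl5 had 130, 680, 888 and 284 CPM in TSP-4 plasmid libraries A to D, against 144, 935, 888 and 289.8 CPM in empty plasmid libraries A to D. The mean of letter C was thus 6.49-fold that of letter A, and letter B lay 2.81-fold above letter D. Cxcl3, a CXCR2 ligand in the same cluster, had 8.62, 24.4, 43.1 and 35.7 CPM with the TSP-4 plasmid, against 15.7, 28.1, 46.8 and 37.3 CPM with the empty plasmid. Here the B-to-D ratio was 0.72, so D lay above B in both groups. The same ratio was 0.89 for Cxcl2 and 1.15 for Cxcl1.

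The abundant CC ligands Ccl2, Ccl5 and Ccl7 varied less. Ccl2 had 659, 1194, 1342 and 1073 CPM in TSP-4 plasmid libraries A to D, against 622, 1397, 1315 and 1068 CPM in empty plasmid libraries A to D, a C-to-A ratio of 2.07 (adjusted p over letters 8.0e-07, edgeR). Ccl5 had 335, 691, 625 and 375 CPM with the TSP-4 plasmid, against 334, 738, 561 and 355 CPM with the empty plasmid. Letter B was its highest, 2.14-fold above letter A, and letter D lay near letter A. The far less abundant Ccl8, which in mouse signals through CCR8, had a wider letter range of 4.75-fold. It was also highest in letter B, with 4.02, 16.3, 19.4 and 5.84 CPM with the TSP-4 plasmid, against 3.43, 19.1, 15.2 and 5.74 CPM with the empty plasmid. Letters B and C thus stood about equally high for Ccl8. Ccl7 had 399.9, 740.1, 854 and 573 CPM with the TSP-4 plasmid, against 356, 837, 748 and 563 CPM with the empty plasmid, a C-to-A ratio of 2.12.
A few members hardly followed the letters. The homeostatic ligand Cxcl12, which retains stem cells and leukocytes through CXCR4, had 107, 120, 101 and 98.3 CPM in TSP-4 plasmid libraries A to D, against 98.7, 134, 99.9 and 104 CPM in empty plasmid libraries A to D. Its letter range was 1.27-fold with letter B highest, and it was called (adjusted p = 0.0029, edgeR F test). The 5 members not called between letters were Ackr4, Ccl25, Ccl27a, Ccl3 and Cxcl10. Ccl3 (3.74-fold, adjusted p = 0.097) and Cxcl10 (2.96-fold, adjusted p = 0.089) had wide ranges but also spread within letters. Ccl3, a CCR1 ligand, had 6.14, 15.9, 35.3 and 20.1 CPM with the TSP-4 plasmid, against 10.7, 23.7, 27.7 and 15.2 CPM with the empty plasmid, so that its libraries of letters A and B lay lower and those of C and D higher with the TSP-4 plasmid. Ccl25, a CCR9 ligand of thymus and gut, ranged 1.22-fold between letters and Ccl27a 1.21-fold. The tethered ligand Cxcl16 and the epithelial and stromal chemokine Cxcl14 did follow the letters. Cxcl16 had 68.3, 160.4, 197 and 106 CPM in TSP-4 plasmid libraries A to D, against 71.3, 181, 179 and 108 CPM in empty plasmid libraries A to D. Cxcl14 had 6.90, 20.8, 23.6 and 19.6 CPM with the TSP-4 plasmid, against 8.13, 20.04, 23.4 and 18.4 CPM with the empty plasmid. For Cxcl14 letter A alone stood apart, with the 3 others within a 1.24-fold range.

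Markers of macrophages moved with the same letters. The summed level of the 20 listed macrophage markers was 390, 984, 2212 and 974 CPM in TSP-4 plasmid libraries A to D, against 427, 1315, 1799 and 816 CPM in empty plasmid libraries A to D, a C-to-A ratio of 4.91. Of the markers, 19 of 20 passed the filter, and only Cd163 was under it. Between letters 18 of 19 were called, against 28.1% of all genes tested. The defining markers Adgre1, Csf1r, Cd68 and Ptprc were all measured, with Adgre1 at 20.7 to 126 CPM with the TSP-4 plasmid and 26.2 to 102 CPM with the empty plasmid. The C-to-A ratio of the 25 members had a median of 3.13, and 4 of 25 lay above that of the macrophage sum. The B-to-D ratio of the macrophage sum was 1.28, and that of the members had a median of 1.31, with 13 of 25 above the macrophage sum and 12 below it, between 0.72 for Cxcl3 and 3.05 for Ccl8. The part of macrophages in the chemokine levels was not tested.

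Other lists moved with the letters as well, in other patterns, and their called counts stand beside 28.1% of all genes tested. Fibroblast markers, of which 10 of 12 were called between letters, had a summed C-to-A ratio of 0.90 and a B-to-D ratio of 1.48, with letter D lowest in both groups. NF-kB feedback and target genes had a summed C-to-A ratio of 1.32 and a B-to-D ratio of 1.08, and interferon-stimulated genes 1.20 and 1.25. Mesothelial markers, of which 5 of 7 were called, summed to 975, 539, 608 and 877 CPM in TSP-4 plasmid libraries A to D, against 993, 496, 583 and 844 CPM in empty plasmid libraries A to D. Their letters A and D thus lay above B and C in both groups, the reverse of Ccl9. Endothelial markers, of which 6 of 10 were called, summed to 52.5 to 77.0 CPM in TSP-4 plasmid libraries and 54.5 to 87.9 CPM in empty plasmid libraries, with letter B lowest in both groups. Pericyte and smooth muscle markers (0 of 4 called) summed to 13.4 to 16.7 CPM in TSP-4 plasmid libraries and 14.3 to 36.0 CPM in empty plasmid libraries. Cardiomyocyte markers summed to 12.8 to 17.6 CPM in TSP-4 plasmid libraries and 12.3 to 16.5 CPM in empty plasmid libraries. The part of these cell types in the chemokine levels was not tested either. T, B and NK cell markers summed to 0 to 0.295 CPM with the TSP-4 plasmid and 0.177 to 0.209 CPM with the empty plasmid, with Cd3d, Cd3g, Ncr1 and Klrb1c at 0. Neutrophil markers summed to 0.496 to 4.02 CPM with the TSP-4 plasmid and 1.13 to 3.62 CPM with the empty plasmid, with S100a9, Ly6g and Retnlg at 0.

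**Figure D2:**
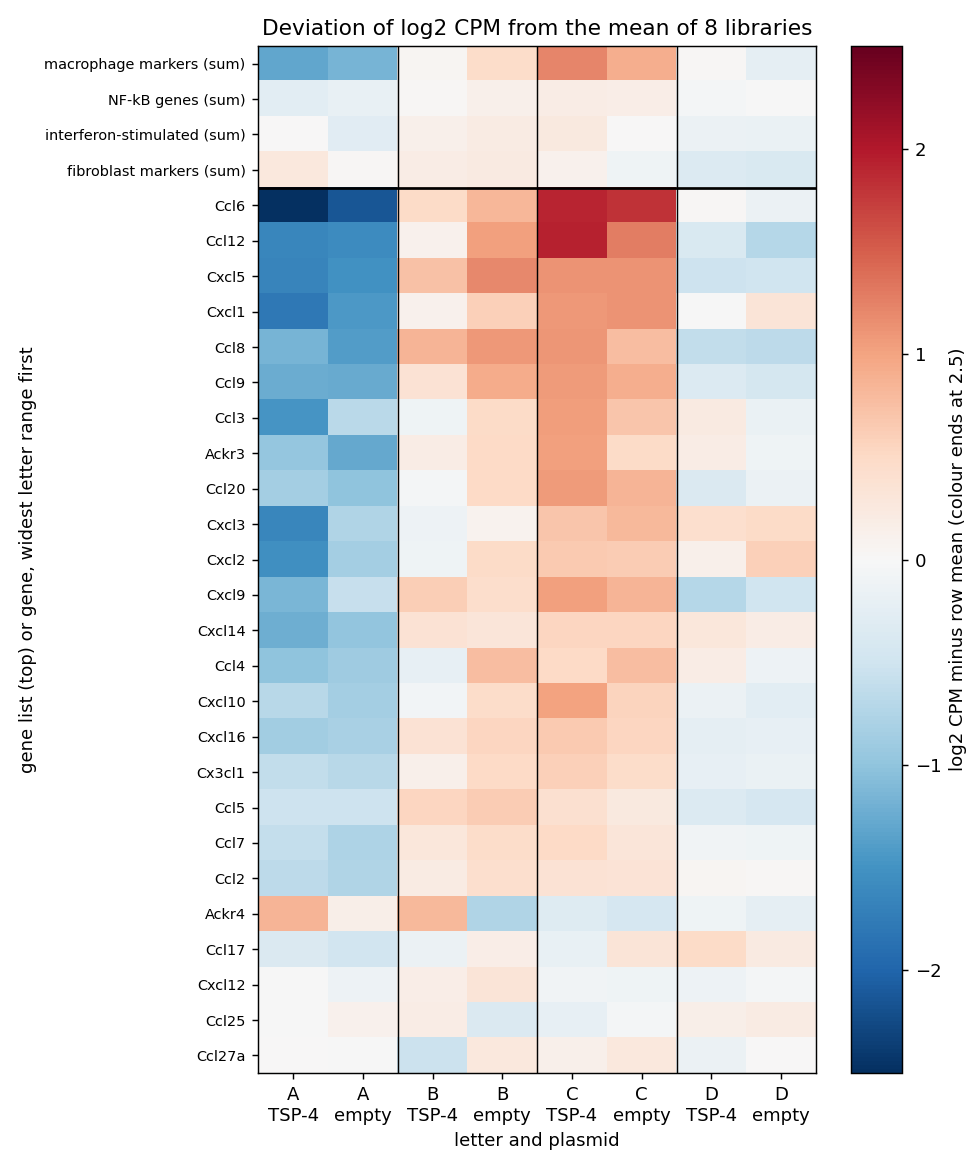
Colour shows the deviation of log2 CPM from the mean of the 8 libraries, with 1 row for each of the 25 members (widest letter range at the top) and 4 rows above them for summed marker and target lists. Columns are libraries ordered by letter, TSP-4 plasmid left of empty plasmid. Both columns of letter A are blue for most members and for the macrophage markers, both columns of letter C are red, and Ackr4, Ccl17, Cxcl12, Ccl25 and Ccl27a at the bottom do not follow this pattern. The NF-kB and fibroblast rows are pale.

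Between plasmids, no chemokine or atypical receptor gene was called. With plasmid as the single term, edgeR's quasi-likelihood test (Benjamini-Hochberg over 14723 genes) called 0 of 25 members higher and 0 lower, against 0.00679% of all genes higher (1 gene, Thbs4) and 0% lower. DESeq2 called 0 members as well. At an unadjusted p under 0.05 edgeR again found 0 members in either direction, against 96 genes higher and 139 lower (0.944%) of all 14723 tested. The smallest adjusted p of a member was 0.999968 (edgeR). For all 25 members the ranges of the groups overlapped. Of all 14723 genes tested, 96 lay wholly higher with the TSP-4 plasmid and 127 (0.863%) wholly lower, and 0 of 25 is near these shares. The fitted log2 fold change, TSP-4 plasmid over empty plasmid, was below 0 for 15 of 25 members (60%, against 50.1% of all genes tested), with a median of -0.02, against -0.00 for all genes. Leaving out a single library moved this median from -0.33 (without TSP-4 plasmid library C) to 0.18 (without TSP-4 plasmid library A), so its direction rests on single libraries.

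As same-lettered libraries lay close together, the letter was also fitted as a replicate block. With the block, 0 of 25 members were called in either direction (edgeR, smallest adjusted p = 0.346), against 0.00679% of all genes lower. At an unadjusted p under 0.05 the block gave 2 members lower (Cxcl1 and Cxcl2), against 3.98% of all genes, and 1 member higher (Ackr4), against 4.14% of all genes. Counts this small lie near those shares. The block narrowed the 95% intervals of the log2 fold changes, whose median width was 0.525 with it and 1.98 without it. With the block, the interval excluded a change of more than 2-fold in either direction for 24 of 25 members and of more than 1.5-fold for 18 of 25. Without it, this held for 9 of 25 and 2 of 25.

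**Figure D3:**
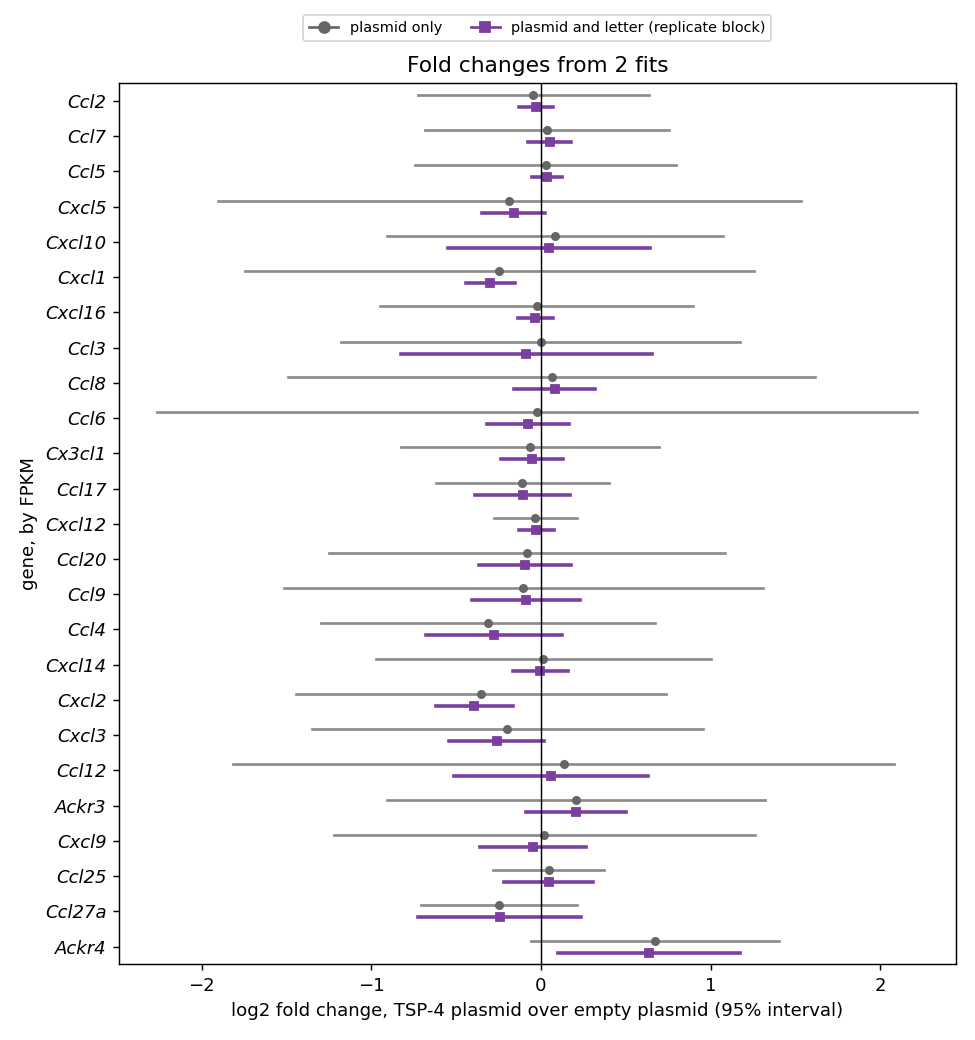
Log2 fold change of TSP-4 plasmid over empty plasmid (x axis) with its 95% interval for the 25 members (y axis, by mean FPKM), from the fit with plasmid only (grey circles) and the fit with the letter as a replicate block (purple squares). All grey intervals cross 0, and with the block those of Cxcl1, Cxcl2 and Ackr4 do not.

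The CXCR2 ligands on chromosome 5 lay below their empty plasmid partners in most letters. Cxcl1 (ENSMUSG00000029380, chr5:90891241-90893115, plus strand) had 47.6, 178, 347 and 164 CPM in TSP-4 plasmid libraries A to D, against 61.2, 248, 357 and 207 CPM in empty plasmid libraries A to D. It was lower in 4 of 4 letters, as were 8.04% of all genes tested, and the groups overlapped widely because letters differed far more than plasmids. Its log2 fold change was -0.24 (95% interval -1.74 to 1.25) with plasmid only and -0.30 (-0.44 to -0.15) with the block (adjusted p = 0.346, edgeR). In the fit with the block but without both libraries of letter C, the letter with the highest Cxcl1 and the smallest difference, the log2 fold change was -0.39 and the adjusted p 0.0376 (edgeR), the 1 call of a member in any setting tried. Without letter A, B or D the adjusted p of the same gene with the block was 0.838, 0.302 and 0.413 (edgeR).

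Cxcl2 (ENSMUSG00000058427, chr5:90903871-90905938, plus strand), the next gene on the chromosome, had 5.78, 15.5, 26.1 and 18.1 CPM in TSP-4 plasmid libraries A to D, against 9.21, 23.2, 25.9 and 25.1 CPM in empty plasmid libraries A to D. With the TSP-4 plasmid, letters A, B and D lay lower and letter C was level. The log2 fold change was -0.35 (95% interval -1.44 to 0.74) with plasmid only and -0.39 (-0.62 to -0.17) with the block (adjusted p = 0.419, edgeR). Cxcl3 (ENSMUSG00000029379), whose CPM values are given above, was lower in 4 of 4 letters, with a log2 fold change of -0.20 with plasmid only and -0.26 (-0.54 to 0.02) with the block. Cxcl5 was lower in 3 of 4 letters, mainly in letter B, with -0.19 and -0.16 on the same scale for the fits without and with the block. None of these 4 genes passed the test. Cxcl1 and Cxcl3 were the 2 of 25 members lower in every letter, near the 8.04% of all genes tested.

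**Figure D4:**
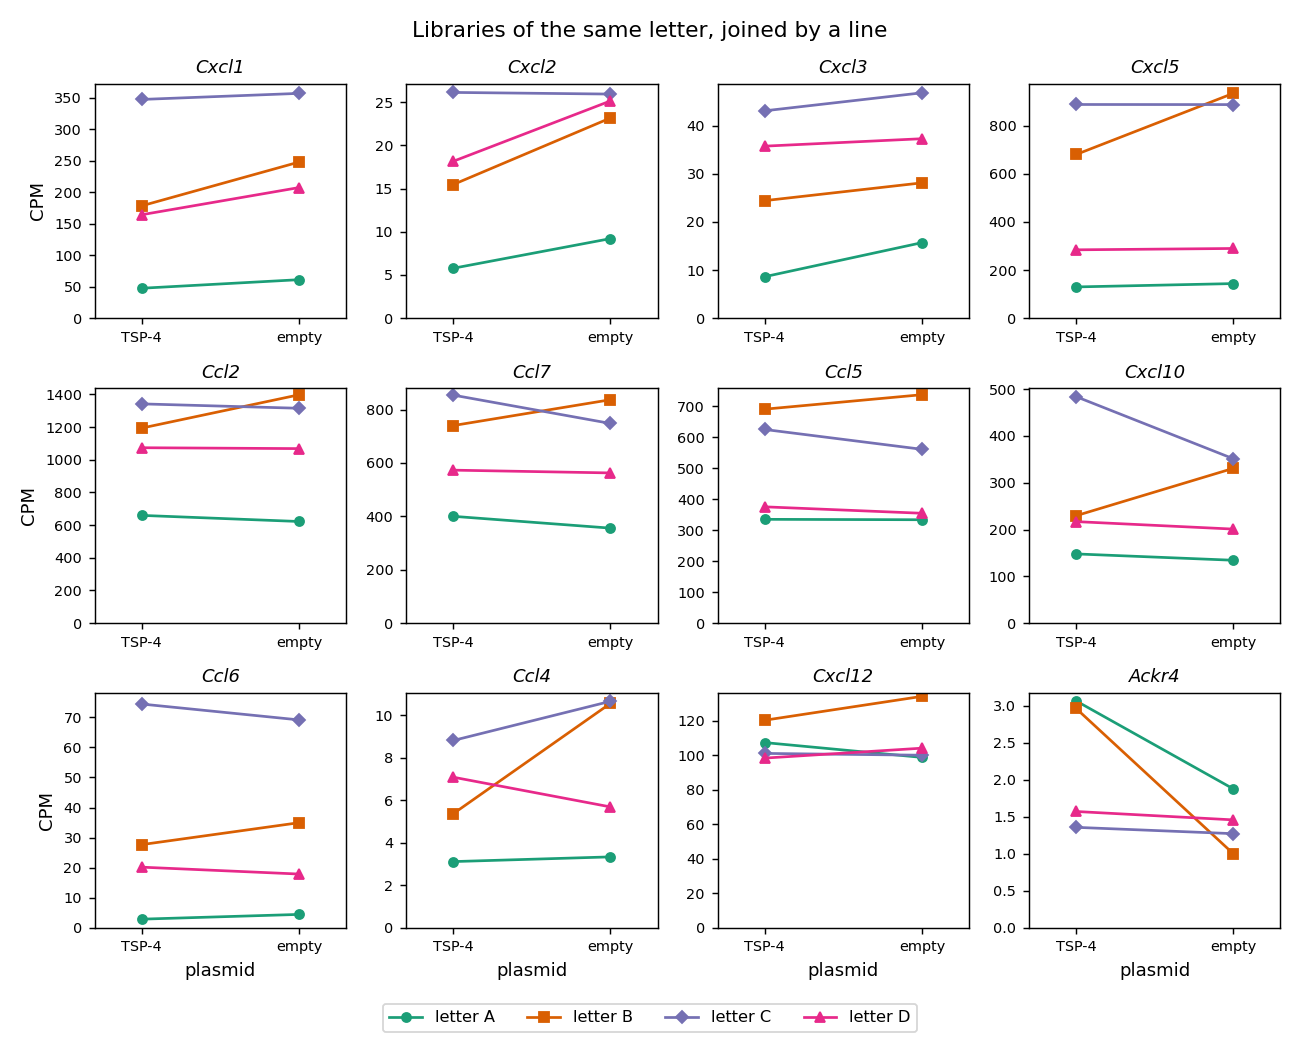
CPM (y axes, each from 0) of 12 members, with TSP-4 plasmid left and empty plasmid right in each panel and a line joining the libraries of a letter. For Cxcl1 and Cxcl3 all 4 lines climb to the right, for Ackr4 all 4 fall to the right, and for Ccl2, Ccl7, Ccl5 and Cxcl10 the lines go both ways. For Cxcl1 and Ccl6 the letters lie far apart beside the difference within a letter, whereas for Ackr4 the ends of letter B lie further apart than the letter means.

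The monocyte attractants did not differ in a common direction. The log2 fold change was -0.04 (95% interval -0.72 to 0.63) for Ccl2, 0.04 (-0.69 to 0.76) for Ccl7, 0.06 (-1.49 to 1.62) for Ccl8 and 0.14 (-1.81 to 2.08) for Ccl12 with plasmid only. With the block, Ccl2 was at -0.03 (-0.13 to 0.07). Among the CC ligands typical of macrophages, Ccl5 was at 0.03 and 0.04, Ccl6 at -0.02 and -0.07, Ccl9 at -0.10 and -0.09, Ccl3 at -0.00 and -0.09 and Ccl4 at -0.31 and -0.28, without and with the block. Ccl4, a chemokine of activated macrophages, had 3.11, 5.36, 8.80 and 7.08 CPM in TSP-4 plasmid libraries A to D, against 3.33, 10.5, 10.6 and 5.68 CPM in empty plasmid libraries A to D. Its difference was largest in letter B and turned round in letter D.

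The interferon-inducible pair gave values on either side. Cxcl10 had 148, 230, 484 and 217 CPM in TSP-4 plasmid libraries A to D, against 134, 331, 351 and 201 CPM in empty plasmid libraries A to D. It was lower with the TSP-4 plasmid in letter B and higher in the 3 others, with a log2 fold change of 0.08 (95% interval -0.91 to 1.07) with plasmid only. Cxcl9, which lies beside it, had 2.26, 7.64, 10.2 and 3.03 CPM with the TSP-4 plasmid, against 3.33, 6.78, 9.02 and 3.55 CPM with the empty plasmid, and its fold change was 0.02 without and -0.05 with the block. Reads of the gene Art3, annotated on the other strand over Cxcl10, cannot be told apart from Cxcl10 reads if counting ignored strand.

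Of the remaining ligands, Cxcl16 (-0.02), Cx3cl1 (-0.06), Cxcl12 (-0.03), Cxcl14 (0.01), Ccl17 (-0.11), Ccl20 (-0.08), Ccl25 (0.05) and Ccl27a (-0.25) had small log2 fold changes with plasmid only. Cxcl12 was the most precisely measured of these, with a 95% interval of -0.28 to 0.21 without the block. Cx3cl1, the membrane-tethered ligand fractalkine, had 39.4, 65.3, 90.3 and 52.4 CPM in TSP-4 plasmid libraries A to D, against 37.2, 85.0, 82.6 and 53.8 CPM in empty plasmid libraries A to D. It was lower in letters B and D and higher in letters A and C. Ccl20, which attracts CCR6-bearing cells, had 8.75, 15.2, 32.7 and 12.3 CPM with the TSP-4 plasmid, against 7.80, 22.3, 28.5 and 14.2 CPM with the empty plasmid. Ccl17, a CCR4 ligand of dendritic cells, had 5.96, 6.96, 6.74 and 10.7 CPM with the TSP-4 plasmid, against 5.495, 8.66, 9.58 and 8.97 CPM with the empty plasmid. Both genes were lower in 2 of 4 letters. Zmynd15 overlaps Cxcl16 on the other strand, Elavl1 overlaps Ccl25, Il11ra1 overlaps Ccl27a and E230016K23Rik overlaps Ccl6. The uncertainty is of the same kind as for Cxcl10 but not of the same size. Summed over the 8 libraries, Il11ra1 had 14149 counts against 240 of Ccl27a, and Elavl1 10940 against 1238 of Ccl25. Zmynd15 had 2441 against 19715 of Cxcl16, E230016K23Rik 195 against 4555 of Ccl6, and Art3 1293 against 38575 of Cxcl10.

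Within letter B most members lay lower with the TSP-4 plasmid, and within letter C most lay higher. The median log2 ratio of TSP-4 plasmid to empty plasmid over the 25 members was 0.01 in letter A, -0.31 in letter B, 0.11 in letter C and 0.03 in letter D, with 12, 21, 6 and 11 members below 0. In letter B the macrophage marker sum was also lower with the TSP-4 plasmid (984 CPM) than with the empty plasmid (1315 CPM), while in letter C it was higher with the TSP-4 plasmid (2212 CPM) than with the empty plasmid (1799 CPM). Its part in these shifts was not tested. Member counts made up 0.198%, 0.424%, 0.524% and 0.318% of all counts in TSP-4 plasmid libraries A to D, against 0.196%, 0.509%, 0.495% and 0.321% in empty plasmid libraries A to D.

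The 2 atypical receptors that passed the filter lay higher on average with the TSP-4 plasmid. Ackr4 (ENSMUSG00000079355, chr9:104084157-104126933, minus strand), which takes up CCL19, CCL21 and CCL25, had 68, 52, 23 and 28 counts in TSP-4 plasmid libraries A to D, against 40, 17, 25 and 28 counts in empty plasmid libraries A to D. Scaled for library size these were 3.07, 2.97, 1.36 and 1.57 CPM with the TSP-4 plasmid, against 1.88, 1.00, 1.27 and 1.46 CPM with the empty plasmid. It was higher in 4 of 4 letters, as were 8.03% of all genes tested, but by little in letters C and D. The log2 fold change was 0.67 (95% interval -0.06 to 1.40) with plasmid only and 0.64 (0.10 to 1.17) with the block (adjusted p = 0.547, edgeR). Ackr4 overlaps Acad11 on the other strand, and the strand setting of the counting is not given in the sources used here. Summed over the 8 libraries, Acad11 had 5089 counts against 281 of Ackr4, so part of these few Ackr4 counts may belong to Acad11. The ligands it takes up were at 0 to 3 counts (Ccl19, Ccl21a to Ccl21c), apart from Ccl25. Reads of the near-identical Ccl19 and Ccl21 copies cannot be assigned with certainty, so their counts may be too low. Ackr3, the scavenger of CXCL12, had 3.38, 7.59, 13.5 and 7.53 CPM with the TSP-4 plasmid, against 2.72, 9.37, 9.32 and 6.20 CPM with the empty plasmid. Its log2 fold change was 0.21 (95% interval -0.91 to 1.32) with plasmid only.

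Of 20 listed receptor genes, a list that holds the non-signalling Ccrl2 beside chemokine receptors, 7 passed the filter and 0 were called between plasmids. Their log2 fold changes were above 0 for 3 and below 0 for 4, with a median of -0.01. Between letters 4 of the 7 were called, against 28.1% of all genes tested. Ccr1, a receptor of CCL3, CCL5, CCL6 and CCL9, averaged 9.20 ± 5.46 CPM in TSP-4 plasmid libraries and 8.67 ± 4.82 CPM in empty plasmid libraries (SD, n = 4 each). It is known from macrophages and was called between letters, with letter C highest and A lowest. Ccrl2, which binds chemerin and is among the 7 and the 4, averaged 15.5 ± 7.07 CPM in TSP-4 plasmid libraries and 15.6 ± 5.27 CPM in empty plasmid libraries (SD, n = 4 each). Ccr2 and Cxcr2, the receptors of the abundant Ccl2 and Cxcl1 products, were under the filter. Xcr1, whose ligand gene Xcl1 had no counts, averaged 2.54 ± 0.327 CPM in TSP-4 plasmid libraries and 2.70 ± 0.242 CPM in empty plasmid libraries. Cxcr6, the receptor of CXCL16, averaged 1.56 ± 0.323 CPM in TSP-4 plasmid libraries and 1.40 ± 0.598 CPM in empty plasmid libraries. Cxcr4, the receptor of CXCL12, averaged 1.42 ± 0.342 CPM in TSP-4 plasmid libraries and 1.26 ± 0.798 CPM in empty plasmid libraries (SD, n = 4 each for the 3 genes). The groups overlapped for each of these receptors.

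Chemokines named outside the nomenclature were measured in 4 of 4 cases, 0 were called and all 4 lay below 0 (median -0.04). Pf4, a platelet and macrophage CXC chemokine, averaged 12.0 ± 4.94 CPM in TSP-4 plasmid libraries and 12.4 ± 5.48 CPM in empty plasmid libraries (SD, n = 4 each). It was the 1 of the 4 called between letters, against 28.1% of all genes tested. Mif, a cytokine that binds CXCR2 and CXCR4, averaged 205 ± 12.7 CPM in TSP-4 plasmid libraries and 207 ± 7.47 CPM in empty plasmid libraries, and Cklf 9.25 ± 0.423 CPM in TSP-4 plasmid libraries and 9.95 ± 0.756 CPM in empty plasmid libraries (SD, n = 4 each). Heparan sulfate genes, whose products hold chemokines on cell surfaces, had 15 of 15 tested, 8 above 0 and 7 below, with a median of 0.01 and 0 called. Receptor signalling genes and arrestins had 15 tested, 6 above 0 and 9 below, with a median of -0.01 and 0 called.

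NF-kB feedback and target genes, which share an activator with Cxcl1 and Cxcl2, were below 0 in 17 of 20 cases, against 50.1% of all genes tested. Their median log2 fold change was -0.06, while 0 were called with or without the block. Their summed level was 6773, 8284, 9261 and 7820 CPM in TSP-4 plasmid libraries A to D. In empty plasmid libraries A to D it was 7135, 8937, 9141 and 8057 CPM, so letter C went the other way. At an unadjusted p under 0.05 the block gave 5 of 20 lower and 0 higher, against 3.98% of all genes tested lower. These were Csf2, Lif, Nfkb1, Nfkbiz and Tnfaip3, of which Csf2, Nfkb1 and Nfkbiz are named here only because of this p. Lif, a cytokine of the interleukin-6 family, averaged 238 ± 31.3 CPM in TSP-4 plasmid libraries and 269 ± 25.7 CPM in empty plasmid libraries, a log2 fold change of -0.18. Tnfaip3, the feedback inhibitor A20, averaged 209 ± 34.4 CPM in TSP-4 plasmid libraries and 227 ± 20.4 CPM in empty plasmid libraries, a log2 fold change of -0.13 (SD, n = 4 each for both genes). These differences were of the size of the spread between libraries. Vcam1, a leukocyte adhesion receptor, averaged 1330 ± 467 CPM in TSP-4 plasmid libraries and 1342 ± 437 CPM in empty plasmid libraries. Ptgs2, the inducible cyclooxygenase, averaged 528 ± 221 CPM in TSP-4 plasmid libraries and 661 ± 212 CPM in empty plasmid libraries, and the macrophage growth factor Csf1 3984 ± 145 CPM in TSP-4 plasmid libraries and 4018 ± 151 CPM in empty plasmid libraries (SD, n = 4 each for the 3 genes). Between letters 18 of these 20 genes were called, against 28.1% of all genes tested.

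Interferon-stimulated genes, which share an activator with Cxcl9 and Cxcl10, lay on the other side, with 16 of 18 above 0. Of all genes tested, 50.1% lay below 0. Their median log2 fold change was 0.10, while 0 were called with or without the block. Their summed level was 6760, 7282, 7995 and 6048 CPM in TSP-4 plasmid libraries A to D. In empty plasmid libraries A to D it was 5527, 7743, 6735 and 6014 CPM. The sum was thus lower with the TSP-4 plasmid in letter B and nearly level in letter D. Genes of a list can vary together, so such counts are not of independent genes. Between letters 7 of 18 were called, against 28.1% of all genes tested. Ifit3, which restrains viral RNA, averaged 1182 ± 170 CPM in TSP-4 plasmid libraries and 1017 ± 156 CPM in empty plasmid libraries, and its partner Ifit1 averaged 967 ± 165 CPM in TSP-4 plasmid libraries and 829 ± 151 CPM in empty plasmid libraries. Irf7, a transcription factor of the interferon response, averaged 1129 ± 72.9 CPM in TSP-4 plasmid libraries and 1076 ± 110 CPM in empty plasmid libraries, and the antiviral GTPase gene Mx2 81.7 ± 8.15 CPM in TSP-4 plasmid libraries and 73.4 ± 9.63 CPM in empty plasmid libraries (SD, n = 4 each for the 4 genes). None of these differences passed the test. Fitted log2 fold changes of cell type markers lay mostly on 1 side too, with 0 called. Of 19 macrophage markers, 17 were above 0 (median 0.05), and 0 had an unadjusted p under 0.05 with the block (edgeR). The macrophage marker sum was lower with the TSP-4 plasmid in letters A (390 against 427 CPM) and B (984 against 1315 CPM). It was higher in letters C (2212 against 1799 CPM) and D (974 against 816 CPM). Of 12 fibroblast markers, 11 were above 0 (median 0.08). Among them 4 lay higher at an unadjusted p under 0.05 with the block (edgeR), against 4.14% of all genes tested. Endothelial markers were above 0 in 2 of 10 cases (median -0.08) and mesothelial markers in 5 of 7 (median 0.04). Their part in the plasmid differences was not tested.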

How the data were processed

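The 8 libraries of poly(A) RNA were made with a NEBNext Ultra kit, per the labels. HTSeq 0.6.1, Cufflinks 2.1.1, TopHat2 2.0 and CASAVA stand in the submitters' processing notes beside the builds GRCm38.p6 and mm10, with no role stated. How multi-mapping reads were handled, the annotation release and the strand setting were not given in the sources used here. The authors deposited whole-number counts for 54532 genes and FPKM values, and each deposited FPKM value equals the count over gene length times 1 constant per library. The members, gene lists and tests were chosen with earlier results of these data known.

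Counts were scaled to CPM with edgeR's TMM factors. Genes that passed filterByExpr (minimum count 10) went into the robust quasi-likelihood test of edgeR 4.0.16 (with limma 3.58.1 and R 4.3.3). The model held plasmid alone, and p-values were adjusted by Benjamini-Hochberg over 14723 genes, with a threshold of 0.05. A second test took the 3 letter coefficients together with plasmid as a covariate. Scripts were tested on simulated data. Alternatives were DESeq2 1.42.0, no filter, the letter as a replicate block, and leaving out single libraries. Leaving out both libraries of a letter was chosen after seeing the data. The named pathway genes are the 2 with the smallest p and the 3 with the highest mean CPM of each list given by name. The heparan sulfate and signalling lists are given as counts only, 1 gene is not reported here, Adrbk1 was not matched, and Cxcr4 and the marker genes are named beside the results they touch. Floors and library totals carry counting error only, while the intervals of the fold changes include the spread between libraries.

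Across genes, deviations of same-lettered libraries from their group means correlated with Pearson's r from 0.508 to 0.651, and those of different letters from -0.570 to 0.323. With a limit of 0.1 the letters therefore pair the libraries, which the labels do not say. The libraries of every pair differed by more than sampling noise (smallest mean chi-square per gene 4.89).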

Additional observations from a re-analysis of the deposited data

Results flagged for a closer look

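A single library stood far from the other 3 of its group in 2 of 54 values examined (3.70%, where chance gives about 5%), by Dixon's ratio of the gap beside it to the whole range of the group. For Cxcl12 this was empty plasmid library B, at 134 CPM against 98.7 to 104 CPM in the other 3, a ratio of 0.849. For Cxcl2 it was empty plasmid library A, at 9.21 CPM against 23.2 to 25.9 CPM in the other 3, a ratio of 0.834. Library A of the TSP-4 plasmid group was also the lowest for Cxcl2, at 5.78 CPM.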

How the results depend on the processing

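The count of members called between plasmids was 0 with DESeq2, without the filter, with the replicate block and without any single library, and 1 (Cxcl1) with the block and without both libraries of letter C. The members' median log2 fold change was -0.02 with DESeq2 and without the filter, -0.05 with the block, and -0.33 to 0.18 over the fits without a single library, with -0.24 without empty plasmid library A. Between letters, 18 to 21 members were called without a single library, 21 by DESeq2, 22 with the letter as the only term, 20 of 35 tested without the filter, 15 without letter A, 20 without letter B, 20 without letter C and 19 without letter D. DESeq2 called 2700 of all genes between letters, against 4134 by edgeR. At an unadjusted p under 0.05 the plasmid test gave 96 genes higher and 139 lower without the block, against 610 and 586 with it.

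Single log2 fold changes that changed sign were all uncalled: Ccl3 with DESeq2 (0.0087), and with the block Cxcl14 (-0.0023) and Cxcl9 (-0.048). The fits without a single library leave its same-lettered partner in, and in them the following ranges ran through 0: Ackr3 -0.16 to 0.47, Ccl12 -0.90 to 0.60, Ccl2 -0.24 to 0.13, Ccl20 -0.58 to 0.22, Ccl25 -0.053 to 0.13, Ccl3 -0.46 to 0.30, Ccl5 -0.16 to 0.28, Ccl6 -0.90 to 0.71, Ccl7 -0.16 to 0.21. Further ranges were Ccl8 -0.32 to 0.48, Ccl9 -0.56 to 0.18, Ccr1 -0.35 to 0.37, Ccrl2 -0.31 to 0.23, Csf1 -0.0299 to 0.013, Cx3cl1 -0.30 to 0.10, Cxcl1 -0.74 to 0.10, Cxcl10 -0.35 to 0.29. The last were Cxcl12 -0.095 to 0.081, Cxcl14 -0.23 to 0.29, Cxcl16 -0.27 to 0.20, Cxcl3 -0.48 to 0.11, Cxcl5 -0.62 to 0.17, Cxcl9 -0.39 to 0.34, Cxcr6 -0.0598 to 0.38, Mif -0.039 to 0.027, Pf4 -0.29 to 0.19, Vcam1 -0.22 to 0.16. The members that kept their sign in these fits were Ackr4 (0.48 to 0.85), Cxcl2 (-0.67 to -0.06), Ccl4 (-0.56 to -0.09), Ccl27a (-0.33 to -0.13) and Ccl17 (-0.32 to -0.0045). Depth limits the 23 members under the filter, where a difference between plasmids was not detectable.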

Other observations

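Cxcl11, the other interferon-inducible CXCR3 ligand beside Cxcl9 and Cxcl10, is annotated as a polymorphic pseudogene and so falls outside the rule by which the members were chosen. It was looked at after its values were seen. It had 13, 15, 23 and 13 counts in TSP-4 plasmid libraries A to D, against 26, 27, 34 and 20 counts in empty plasmid libraries A to D, or 0.883 ± 0.336 CPM in TSP-4 plasmid libraries and 1.40 ± 0.319 CPM in empty plasmid libraries (SD, n = 4 each). It was lower in 4 of 4 letters, with a log2 fold change of -0.67 (95% interval -1.36 to 0.02, adjusted p = 0.999968, edgeR) with plasmid only and -0.68 (adjusted p = 0.516, edgeR) with the block. Cxcl9 was lower in 2 of 4 letters and Cxcl10 in 1 of 4.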
